A study of Mus musculus with 38 samples.

Results

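RelA-TA-KI mouse embryonic fibroblasts were compared with wild-type (WT) fibroblasts 0.5 and 1 h after lipopolysaccharide (LPS). The 4 libraries were chosen by their labels, 1 for each genotype and time, from 38 in the series. All were made from primary fibroblasts of C57BL/6 embryos that had been starved of serum overnight and were then given LPS at 100 ng/ml. Both genotypes shared this background, starvation and dose. WT cells carried the unaltered Rela gene and RelA-TA-KI cells were homozygous for a knock-in allele, whose change the labels do not spell out; they are also called knock-in cells below. TA is read here as transactivation, from the title of the series. The matching untreated libraries, the Poly(I:C) libraries of the same 2 times (20 ug/ml) and a separate set of TNF libraries (10 ng/ml, 2 per genotype and time) serve as points of reference. The labels do not say whether the 2 TNF replicates came from separate embryos or cultures, so p-values measure the spread between these samples. The 2 WT replicates were not the same cells: Xist was at 361 and 3.18 CPM at 0.5 h of TNF and the Y-linked Ddx3y at 0.675 and 129, while both knock-in replicates had Xist at 347 and 443 CPM and almost no Ddx3y (0 and 0.332).

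LPS, a component of the outer membrane of Gram-negative bacteria, is held by CD14 and MD-2 and sensed by the receptor TLR4. The adaptors MyD88 and TRIF pass the signal to IkB kinase, which frees NF-kB dimers containing RelA from their IkB inhibitors, and to MAP kinases, which act on serum response and AP-1 factors. RelA binds kB sites in DNA and activates transcription through domains at its C terminus. Its early targets include its own inhibitors, chemokines, cytokines and adhesion molecules.

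The 4 libraries held 7.70 to 8.62 M counts and had scaling factors of 1.113 to 1.153. Levels are given as counts relative to library size (CPM), scaled by TMM, a correction for library composition. Rela itself had 69.9 CPM in untreated WT and 62.6 in knock-in cells, 73.2 and 67.1 at 0.5 h, and 104 and 80.5 at 1 h. Fibroblast markers summed to 48147 and 52721 CPM in WT and 53514 and 59206 in knock-in cells at the 2 times. The cultures also held macrophage transcripts, whose 20 markers summed to 5867 CPM in WT and 4518 in knock-in cells at 0.5 h, and 5652 and 4631 at 1 h. None of the 20 differed 2-fold, their median log2 ratio (RelA-TA-KI over WT) was -0.38 and -0.26, and none of the defining ones was at 0 (Lyz2 1332 to 1860 CPM). In bulk RNA, fewer cells of a type and less RNA per cell cannot be told apart. Xist was at 432 and 366 CPM in WT against 1.5 and 0.833 in knock-in cells, while the Y-linked Ddx3y was at 59.9 and 66.8 against 133 and 153, so WT held both Xist and Y-linked transcripts and RelA-TA-KI almost no Xist; its part in the results was not tested. Mitochondrial genes took 0.951 to 1.04% of counts.

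Few genes differed between the genotypes by size, and after 1 h many of those lower in knock-in cells were LPS-induced genes. Here a gene is lower or higher by size when the log2 ratio of CPM (prior count 2) is at least 1 in absolute value and 1 of the libraries compared has at least 5 CPM. With 1 library a group there is no test. At 0.5 h, 132 of 11066 genes were lower (1.19%) and 77 were higher (0.696%). At 1 h, 205 of 11006 were lower (1.86%) and 71 were higher (0.645%). The untreated pair, measured in the same way, had 69 lower (0.625%) and 54 higher (0.489%) among 11037. The pairs at 0.5 and 1 h share no library: 101 genes were lower in both, which is 76.5% of the 0.5 h list and 49.3% of the 1 h list.

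Part of these lists was in place before LPS. Of the genes lower at 0.5 h, 53 (40.2%) were also lower in the untreated pair, and at 1 h 51 (24.9%) were. Enpp2, which encodes the lysophospholipase autotaxin, had 209, 221 and 221 CPM in WT at 0, 0.5 and 1 h and 29.9, 30.2 and 32.4 in knock-in cells. The gap in Enpp2 was thus about as wide without LPS as with it. Among genes lower at 1 h, 108 were at least 2-fold above the untreated level in WT, and 51 were so in knock-in cells, while over all genes examined for a response 230 (2.05%) and 149 (1.33%) were. The list was chosen from the same 1 h libraries, so an excess of WT over knock-in cells within it follows from the choice.

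To set the constant differences apart, responses were compared. The response is the log2 ratio of LPS over the untreated library of the same genotype, and a gene was taken as induced when the mean of both responses was at least 1. This choice weights both genotypes equally. At 0.5 h, 81 genes were induced, 26 of them with a response smaller by at least 1 in knock-in cells and 1 with a response larger by as much. At 1 h, 181 were induced, 78 with a smaller and 2 with a larger response. Those with a larger response were Nr4a3, an orphan nuclear receptor, at 0.5 h (14.5 CPM in WT and 24.1 in knock-in cells), and Dusp1 and the uncharacterized 4930430E12Rik (9.32 and 13.9 CPM) at 1 h. None of these was higher by size at that time. Part of each difference lies in the untreated levels, lower in knock-in cells. These were 3.35 and 2.09 CPM for Nr4a3, 12.1 and 9.44 for Dusp1, and 2.44 and 1.69 for 4930430E12Rik. The median difference of responses among induced genes was -0.22 at 0.5 h and -0.75 at 1 h, against -0.02 and 0.01 over all genes examined. A difference of -1 or below was seen in 0.455% of all genes examined at 0.5 h and 1.12% at 1 h. The 2 sets of responses share the untreated libraries. Of the 26 and the 78 genes, 13 and 45 had 5 CPM in the untreated pair and could be examined there. None of these was lower by size, but Gpr84 and Clec4e, under 5 CPM, had untreated log2 ratios of -1.41 and -1.01. A smaller response is net of the untreated ratio, so the choice selects against genes already lower untreated. Only 0.625% of all genes were lower in the untreated pair, so nothing is read from the lack of such genes here.

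**Figure D1:**
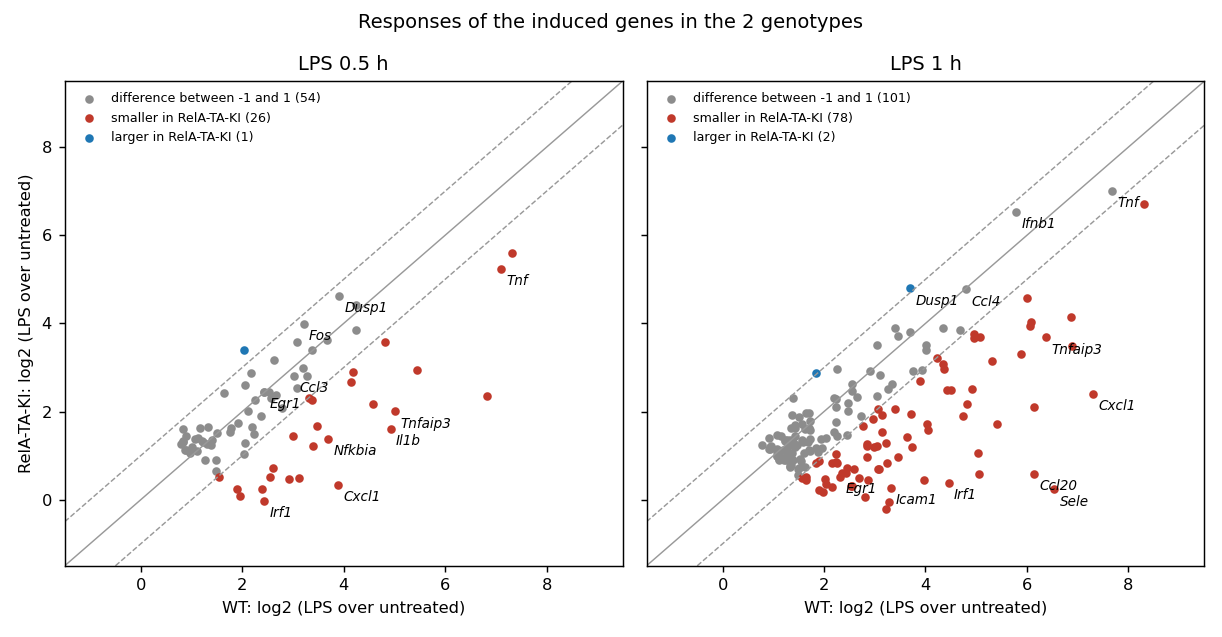
Log2 response to LPS in WT (x axis) and RelA-TA-KI (y axis) of the induced genes at 0.5 h (left) and 1 h (right), 1 library per genotype and time. Points are genes, the solid line marks equal responses and the dashed lines a difference of 1, and 78 of 181 genes lie below the lower dashed line at 1 h.

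The loss was graded rather than uniform. For each induced gene the rise in CPM in knock-in cells was expressed as a percent of the rise in WT, over genes at least 2-fold up in WT. This choice rests on WT alone and favours low percents. It leaves out induced genes with the larger response in knock-in cells, such as Ereg and Arc at 0.5 h. Neither was at a higher level in knock-in cells at that time (Ereg 15.2 CPM in WT and 15 in knock-in cells, Arc 38 and 34.4). Their untreated levels were lower there (8.42 and 4.77, and 20.4 and 12.4). At 1 h the median of the 175 genes so chosen was 42%, with quartiles of 18.2 and 78.2%. Of these, 29 kept less than 10% of the WT rise, 70 kept 10 to 50%, 41 kept 50 to 90% and 35 reached 90% or more. At 0.5 h the median of 73 genes was 67.7%, with 14 below 10% and 26 at 90% or more. Of the 78 genes with a smaller response at 1 h, 42 were still 2-fold up in knock-in cells. For 46 of them the level in knock-in cells at 1 h was below that of WT at 0.5 h.

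**Figure D2:**
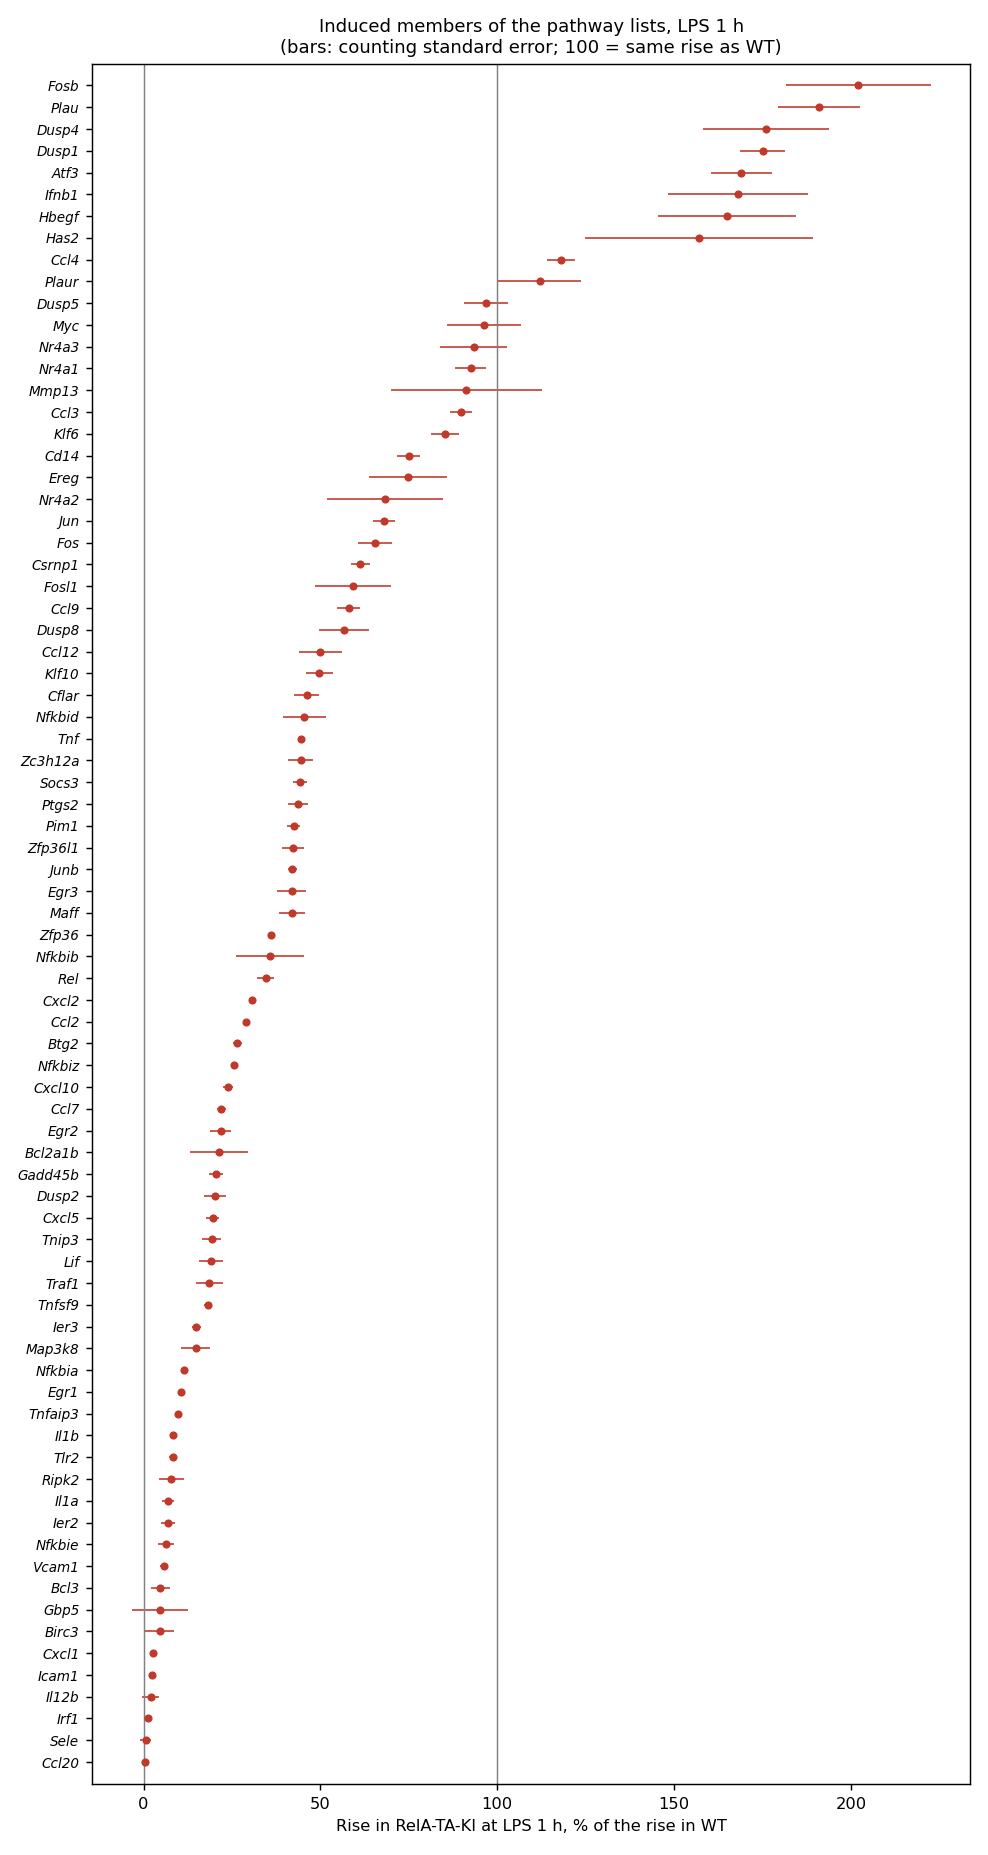
Rise in CPM in knock-in cells at LPS 1 h as a percent of the rise in WT, for the induced members of the pathway lists that were at least 2-fold up in WT, ordered by value, with 1 member not shown. Points are genes and bars are the standard error from counting alone; values run from 0.521% (Ccl20) to 202% (Fosb).

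In the gene groups below, counts of members lower by size can be set against the shares of all genes given above (1.19% at 0.5 h, 1.86% at 1 h). Members under 5 CPM in both libraries were not examined, so counts are out of those examined, while list medians are over members with a mean of at least 1 CPM.

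The LPS receptor complex and its kinases were mostly present at like levels. Of 22 examined at each time (23 listed), 2 were lower by size at 0.5 h and 3 at 1 h, and the list medians were -0.13 and -0.07. Tlr4, the receptor, was at 66.5 and 49.3 CPM in WT and 50.2 and 50.5 in knock-in cells. Cd14, the co-receptor, is itself LPS-induced and went from 55.2 to 158 and 261 CPM in WT and from 39.4 to 113 and 194 in knock-in cells. Its log2 responses differed by 0.00 at 0.5 h and 0.06 at 1 h. Tlr2, the receptor for bacterial lipopeptides, was the exception among receptors. Tlr2 went from 33.9 to 126 and 321 CPM in WT and from 29.5 to 35.1 and 53.1 in knock-in cells, so WT was 6.05-fold higher at 1 h (95% interval 5.5 to 6.66; such intervals are exact binomial and cover counting error only). The kinases Map3k8 and Ripk2 were also lower at 1 h, at 33.3 and 69.5 CPM in WT and 8.54 and 19.2 in knock-in cells.

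Among the NF-kB subunits, none of 5 was lower by size at 0.5 h and 2 were at 1 h. Rel, which encodes c-Rel, went from 25.7 to 54 and 177 CPM in WT and from 23.5 to 31.2 and 75.6 in knock-in cells. Relb was at 16.7 CPM untreated and 49 at 1 h in WT, and at 12.6 and 14.9 in knock-in cells. With TNF at 1 h, a measurement that shares no library with LPS, all 5 subunits were lower in knock-in cells (edgeR quasi-likelihood test, adjusted p from 1.5e-06 for Rel to 0.019 for Nfkb1; 0.874% of 13843 genes were called lower).

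The inhibitors of NF-kB were among the genes with the widest gaps. Of 15 members, 6 were lower by size at 0.5 h and 8 at 1 h, none was higher, and the list medians were -0.46 and -1.03. Nfkbia, which encodes IkBalpha, went from 30.8 to 400 and 935 CPM in WT and from 21.7 to 56.6 and 125 in knock-in cells. WT was 7.07-fold higher at 0.5 h (6.45 to 7.75) and 7.46-fold at 1 h (7.02 to 7.94). Tnfaip3, which encodes the ubiquitin-editing enzyme A20, went from 10.8 to 357 and 912 CPM in WT and from 7.06 to 29 and 93.5 in knock-in cells. Its fold was 12.3 (10.9 to 14) at 0.5 h and 9.75 (9.1 to 10.5) at 1 h. Both genes thus responded in knock-in cells, with 11.5% and 9.6% of the WT rise at 1 h. Nfkbiz, the nuclear IkB protein IkBzeta, kept more: 44.5% of the WT rise at 0.5 h (154 against 329 CPM) and 25.7% at 1 h (212 against 787). Nfkbie and Bcl3 kept 6.41% and 4.7% at 1 h. Inhibitors that LPS did not induce, such as Tax1bp1 (219 and 229 CPM at 1 h) and Rnf11 (146 and 160), were at like levels in both genotypes.

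**Figure D3:**
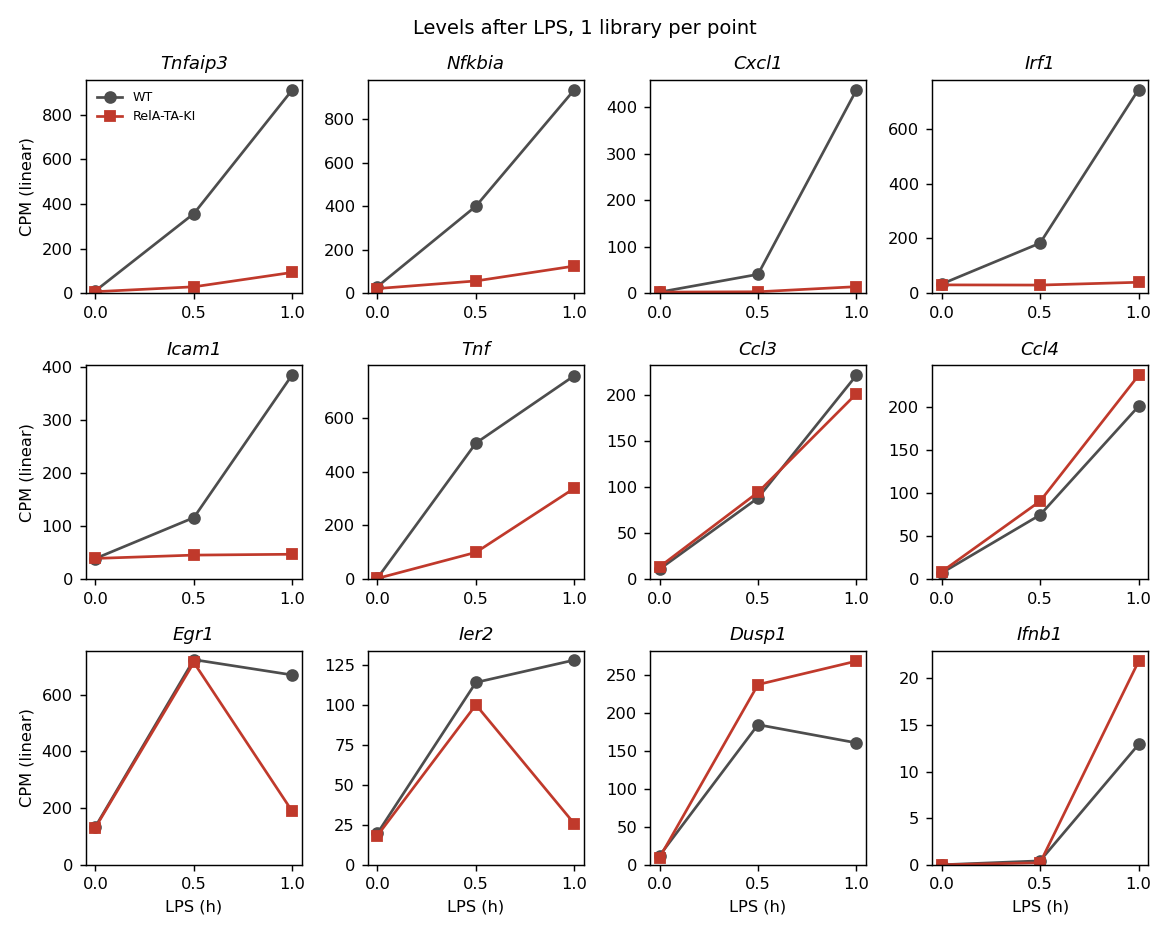
CPM on a linear scale from 0 at 0, 0.5 and 1 h of LPS in WT (grey circles) and RelA-TA-KI (red squares) for 12 genes, 1 library per point. Tnfaip3, Nfkbia, Cxcl1, Irf1 and Icam1 are lower in knock-in cells at both times, Egr1 and Ier2 separate only between 0.5 and 1 h, and Ccl4 and Dusp1 are not lower.

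Sequence upstream was examined for induced genes with a smaller response and for those whose responses differed by less than 1. These groups come from a cut in a graded loss, and many genes of the first group still responded in knock-in cells. In RefSeq promoter windows (GRCm38.p6, 250 bases before each annotated start), the motif GGGNNTTNCC, one form of the kB site, was searched on both strands. It was found in 4.71% of 27025 genes with a window and in 5.77% of those with a mean of at least 1 CPM. Of 26 genes with a smaller response at 0.5 h, 20 had a window and 7 of these (35%) held it. Of 54 induced genes whose responses differed by less than 1, 37 had a window and 3 (8.11%) held it. At 1 h the counts were 11 of 55 (20%) and 7 of 72 (9.72%). The cAMP response element TGACGTCA, which reads the same on both strands, was in 1.77% of all genes with a window and 3.01% of those with at least 1 CPM, in 0 of 20 and 9 of 37 (24.3%) of the same groups at 0.5 h, and in 3 of 55 (5.45%) and 8 of 72 (11.1%) at 1 h. A match is a description of letters and not of binding, no test was made of these shares, and distal elements lie outside the windows. The looser pattern GGGNNNNNCC, which contains the first, was in 66.9% of genes with at least 1 CPM, in 75% and 67.6% of the 2 groups at 0.5 h and in 78.2% and 59.7% at 1 h. Of the matched windows 6 are printed here, in lower case with the motif in capitals. Of these windows 4 are from genes with a smaller response and a kB match. The other 2 windows hold a response element match, from Dusp1 and from Btg2, whose response was smaller by at least 1 at 1 h but not at 0.5 h. All are read 5′ to 3′ on the gene's own strand, at chr5:90891154-90891203 (plus strand) for Cxcl1, chr12:55492648-55492696 (minus) for Nfkbia, chr10:19015411-19015442 (minus) for Tnfaip3, chr1:83116666-83116715 (plus) for Ccl20, chr17:26508588-26508635 (minus) for Dusp1 and chr1:134079294-134079341 (minus) for Btg2.
Cxcl1: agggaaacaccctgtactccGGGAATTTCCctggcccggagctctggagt
Nfkbia: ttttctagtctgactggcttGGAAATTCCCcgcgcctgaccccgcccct
Tnfaip3: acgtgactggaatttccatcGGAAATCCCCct
Ccl20: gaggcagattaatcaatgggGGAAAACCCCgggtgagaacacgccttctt
Dusp1: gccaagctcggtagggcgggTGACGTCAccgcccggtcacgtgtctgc
Btg2: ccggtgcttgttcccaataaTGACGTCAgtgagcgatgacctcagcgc

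The first bases of the motifs lie 71, 29, 12, 80, 143 and 166 bases before the start in this order. All 6 matches are upstream of the first exon of the transcript used, which follows from searching only bases before annotated starts. Tnfaip3 has 2 such starts, and the window printed lies inside the counted gene (chr10:19000910-19015657), downstream of its outermost start.

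Chemokines divided by gene. Of 20 listed, 2 of 14 examined were lower by size at 0.5 h and 8 of 16 at 1 h, and the list medians were -0.41 and -0.79. Cxcl1, a neutrophil attractant, went from 2.53 to 40.7 and 437 CPM in WT and from 2.48 to 3.21 and 14.2 in knock-in cells. WT was 12.7-fold higher at 0.5 h (8.73 to 19) and 30.9-fold at 1 h (26 to 36.9). Ccl20, which attracts CCR6-bearing cells, was at 0.525 and 0.856 CPM at 0.5 h and stood at 42.2 CPM in WT and 0.417 in knock-in cells at 1 h, a ratio of 101 (39.2 to 373) that rests on 4 counts in knock-in cells. Cxcl2, a close relative of Cxcl1, kept more of its response, with 210 and 419 CPM in WT and 59.5 and 130 in knock-in cells, or 28% and 30.8% of the WT rise. The monocyte attractants Ccl2 and Ccl7 were at like levels at 0.5 h (63 and 47.5 CPM, and 14.4 and 16.4) and apart at 1 h (413 and 126, and 245 and 59). Ccl3 and Ccl4, attractants of monocytes and T cells, were not lower by size at either time: Ccl3 was at 87.9 and 221 CPM in WT and 94 and 201 in knock-in cells, and Ccl4 at 74.6 and 201 in WT and 90.6 and 237 in knock-in cells. Their responses differed by -0.43 and -0.03 at 1 h.

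Cytokines ranged as widely. Of 22 listed, 3 of 9 examined were lower by size at 0.5 h and 7 of 13 at 1 h, while 2 were higher at 0.5 h and none at 1 h. Tnf went from 3.44 to 506 and 757 CPM in WT and from 2.38 to 99.3 and 338 in knock-in cells, so that the WT excess narrowed from 5.09-fold (4.75 to 5.47) to 2.24-fold (2.15 to 2.34). Il1b was at 67.6 and 262 CPM in WT and 6.21 and 23.5 in knock-in cells, and Il1a at 4.52 and 35.8 against 0.963 and 2.92. Tnfsf9, the ligand of 4-1BB, kept 13% and 18.3% of the WT rise. Csf1, the growth factor of macrophages, did not move by 0.5 h (173 and 148 CPM) and reached 467 CPM in WT and 162 in knock-in cells at 1 h. Ifnb1, which encodes interferon beta and is driven through TRIF and IRF3 together with NF-kB, had 0 counts in both untreated libraries, and 12.9 CPM (111 counts) in WT and 21.8 CPM (209 counts) in knock-in cells at 1 h. RelA-TA-KI was thus 1.68-fold higher for Ifnb1. The 2 cytokines higher at 0.5 h were Lif (3.47 and 7.49 CPM in WT and RelA-TA-KI) and Il33 (4.73 and 10.1), of which Il33 had nearly the same gap untreated (5.61 and 10.4).

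Genes found mainly in macrophages were part of this set, including Il1b, Clec4e, an immune receptor for fungal and mycobacterial glycolipids, and Acod1, which makes itaconate. Clec4e was at 39.9 and 98.9 CPM in WT and 3.53 and 8.02 in knock-in cells, and Acod1 at 137 and 8.44 at 1 h. The ratios of these genes were 12.3 (9.76 to 15.8) and 16.3 (13 to 20.6) at 1 h, and none of the 20 macrophage markers reached 2. Clec4e and Acod1 were picked for low values in knock-in cells while the markers were not, and the part of cell composition was not tested. Net of its untreated gap (1.45 and 0.596 CPM), the log2 ratio of Clec4e at 1 h went from -3.59 to -2.57. With TNF they were not called at 1 h (Clec4e log2 -2.98, SE 0.84, adjusted p = 0.19; Acod1 -3.50, SE 0.98, adjusted p = 0.18; edgeR).

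Adhesion molecules differed in the time at which they separated. Of 16 genes listed with matrix and prostaglandin genes, 2 of 12 examined were lower by size at 0.5 h and 5 of 13 at 1 h, and 1 was higher at each time. Icam1, a ligand of leukocyte integrins, went from 38.7 to 116 and 386 CPM in WT and from 38.9 to 45.2 and 46.8 in knock-in cells. It kept 2.28% of the WT rise at 1 h. Vcam1 was unmoved at 0.5 h (136 and 123 CPM) and stood at 612 and 144 at 1 h. Sele, which encodes E-selectin, had 0 counts in untreated WT and 22 CPM at 1 h, at least 81.1-fold higher than the floor of 3 counts, whereas knock-in cells had 0.497 CPM untreated and 0.625 at 1 h. Ptgs2, the inducible cyclooxygenase, was at 61.1 and 65.4 CPM at 0.5 h and 142 and 74.5 at 1 h. Plau, which encodes the protease urokinase, was not lower and reached 144 CPM in WT and 213 in knock-in cells at 1 h. The member higher at 1 h was the elastase Mmp12 (3.38 and 14.2 CPM) and that at 0.5 h the hyaluronan synthase Has2 (4.94 and 13.5).

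Survival genes followed the inhibitors, with 3 of 14 examined (16 listed) lower by size at 0.5 h, 7 of 14 at 1 h and medians of -0.47 and -1.06. Gadd45b, a stress sensor that restrains JNK signalling, went from 17.2 to 67.8 and 163 CPM in WT and from 20.7 to 21.8 and 50.6 in knock-in cells. Birc3, which encodes the ubiquitin ligase cIAP2, was at 24 and 58.8 CPM in WT and 16.9 and 17.7 in knock-in cells. Sod2, the mitochondrial superoxide dismutase, reached 99 CPM in WT at 1 h and stood at 33.2 in knock-in cells, below its untreated level of 37.1. Reads of Bcl2a1a, Bcl2a1b and Bcl2a1d, near-identical copies, may be split between them and are not described.

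**Figure D4:**
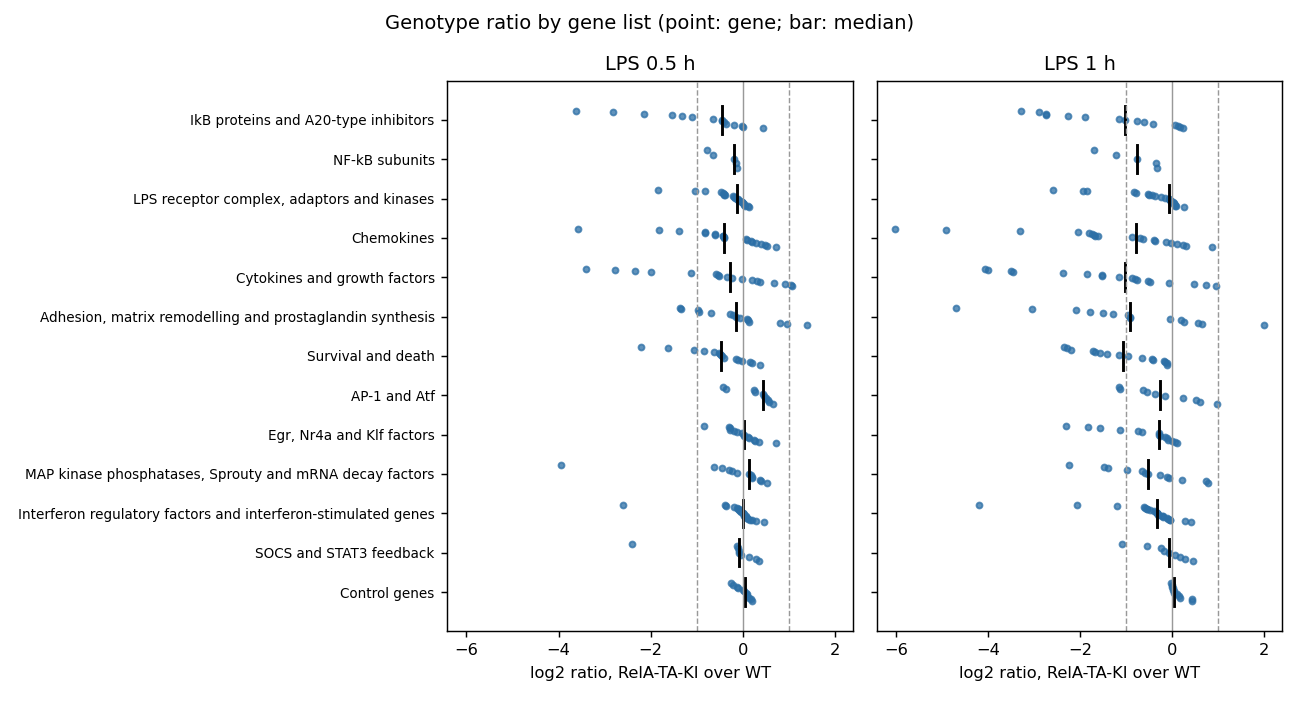
Log2 ratio of CPM, RelA-TA-KI over WT, at LPS 0.5 h (left) and 1 h (right) for members with a mean of at least 1 CPM of each gene list. Points are genes, black bars are medians and dashed lines mark a 2-fold ratio; the inhibitor list has medians of -0.46 and -1.03, the AP-1 list 0.44 and -0.26, and the control genes 0.04 and 0.03.

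Immediate early transcription factors behaved differently at the 2 times. None of 10 AP-1 and Atf genes and none of 15 examined Egr, Nr4a and Klf genes (16 listed) was lower by size at 0.5 h, and 2 and 4 were at 1 h. The AP-1 median was 0.44 at 0.5 h and -0.26 at 1 h. Fos, a partner of Jun in AP-1, was at 15.7, 147 and 88.1 CPM in WT and 12.9, 209 and 60.3 in knock-in cells at 0, 0.5 and 1 h. Egr1, a zinc finger factor of the serum response, was at 134, 723 and 669 CPM in WT and 131, 713 and 188 in knock-in cells. Egr1 levels were within 2% of each other at 0.5 h (ratio 1.01, 0.98 to 1.05) and 3.56-fold apart at 1 h (3.38 to 3.76). Ier2 (114 and 100 CPM at 0.5 h, 128 and 25.6 at 1 h), Btg2, an antiproliferative factor (280 and 309, then 459 and 164), and Egr2 (83.2 and 68.5, then 81.4 and 27.3) had the same course. Each of these 4 genes was near or above its 0.5 h level at 1 h in WT and well below it in knock-in cells. Fosb and Atf3 did not: at 1 h they were at 20.4 and 120 CPM in WT and 40.1 and 183 in knock-in cells. Nr4a1 was at 156 and 144 CPM and Klf6 at 456 and 453.

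Negative regulators of MAP kinases and of mRNA stability were also split. Of 13, 1 was lower by size at 0.5 h and 3 at 1 h. Dusp1, a phosphatase of p38 and JNK, was at 12.1, 185 and 161 CPM in WT and 9.44, 238 and 269 in knock-in cells, and had 1 of the 2 responses that were larger in knock-in cells by at least 1 at 1 h (1.09). Dusp2, by contrast, had 0 counts in untreated WT, 26.7 CPM at 0.5 h and 27.8 at 1 h, against 1.5 and 5.73 in knock-in cells. Zfp36, which encodes the mRNA decay factor tristetraprolin, was at 482 and 784 CPM in WT and 314 and 296 in knock-in cells.

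Interferon-stimulated genes had hardly responded by 1 h in either genotype. Of 23 listed, 1 of 20 examined was lower by size at 0.5 h and 3 of 22 at 1 h. Irf1, a transcription factor of the list, was the gene lower at 0.5 h: it went from 33.7 to 183 and 743 CPM in WT and from 30.6 to 29.9 and 40.1 in knock-in cells. WT was 6.12-fold higher for Irf1 at 0.5 h (5.39 to 6.97) and 18.5-fold at 1 h (16.7 to 20.6), and RelA-TA-KI kept 1.34% of the WT rise. Gbp5 and Gbp6, guanylate-binding proteins, were the others (12.5 and 2.81 CPM, and 5.13 and 2.08, at 1 h). Isg15 (88.8 and 76.5 CPM at 1 h), Ifit1 (149 and 130) and Rsad2 (52.2 and 63.1) were not lower by size. Among SOCS and STAT3 feedback genes, 1 of 7 examined was lower at 0.5 h and 1 of 9 at 1 h: Socs3, at 197 and 252 CPM in WT and 36.7 and 119 in knock-in cells. None of 11 examined control genes (12 listed) was lower or higher at either time.

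Genes outside the lists had some of the deepest losses. Rnd1, a small GTP-binding protein, was at 4.62 and 118 CPM in WT and 3 and 4.79 in knock-in cells, 24.6-fold apart at 1 h (18.3 to 33.8). Gpr84, a receptor for medium-chain fatty acids, was at 11.8 and 31.8 CPM in WT and 0.963 and 2.19 in knock-in cells. Its untreated levels were 1.72 and 0.497 CPM, and net of that gap its log2 ratio at 1 h was -2.31 in place of -3.72. Icosl, a costimulatory ligand, was at 16.9 and 38.2 against 3 and 3.44, and the untreated level in knock-in cells was 3.58. Prdm1, which encodes the repressor Blimp-1, was at 25.3 and 64.1 against 6.96 and 13.7. Tagap, a GTPase-activating protein of lymphocytes, was at 19.1 and 12.7 CPM in WT against 1.93 and 1.67, and Cd69, an early activation antigen, at 6.41 and 13.5 against 0.642 and 0.625. Cd40, a costimulatory receptor, was at 1.68 and 1.39 CPM at 0.5 h and at 10.4 and 0.833 at 1 h. At the other end, the growth factor Hbegf was at 25.5 and 40.7 CPM in WT and 33 and 56.1 in knock-in cells, and Gdf15, a stress-induced cytokine, at 4.52 and 5.94 against 8.13 and 6.77. Of genes higher in knock-in cells, 24 of 77 (31.2%) at 0.5 h and 31 of 71 (43.7%) at 1 h were also higher untreated. One such gene, the membrane protein Lrrc15, was at 11.1, 8.72 and 8.62 CPM in WT and 35.8, 38.2 and 34.2 in knock-in cells.

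For a test, the 2 early times were fitted together with the 7 other conditions of the table (18 libraries, edgeR quasi-likelihood, Benjamini-Hochberg over 13759 genes). Its error term comes from the variation of the genotype effect between conditions, as no condition had replicates. Averaged over 0.5 and 1 h, 108 genes were lower in knock-in cells (0.785%) and 74 were higher (0.538%). Of these 182, 168 were called with the same sign over the 7 other conditions, in which 1620 of all 13759 genes were called. Both effects come from 1 fit with 1 error term, and the other conditions include later LPS and Poly(I:C). The overlap therefore does not show which genes depend on early LPS. The lowest adjusted p belonged to Xist, Aqp1, Cacna2d3 and Comp. The count rests on both times: 28 genes were called without the 0.5 h pair and 6 without the 1 h pair. Of the 108 lower calls 24 were LPS-induced and of the 74 higher ones 0, against 1.34% of all genes tested, a share too small to read the 0. Induced genes that were called lower include Cxcl1 (adjusted p = 0.0024), Irf1 and Gadd45b (both 0.0063), Nfkbia (0.0072), Tnfaip3 (0.011), Il1b (0.03), Clec4e (0.00051) and Acod1 (0.0014). Egr1 (0.5), Tnf (0.49), Icam1 (0.18) and Cxcl2 (0.17) were not called. The difference between early LPS and the 7 other conditions passed the threshold for 0 genes by edgeR, with 334 at an unadjusted p under 0.05, and for 4 by DESeq2.

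The same genotypes given TNF had replicates. At 0.5 h, 27 genes were lower in knock-in cells (0.195% of 13843) and none was higher, with 678 at an unadjusted p under 0.05. At 1 h, 121 were lower (0.874%) and 8 were higher; with 1 library left out, 72 to 79 genes were called at 1 h and 17 to 26 at 0.5 h. Of the 26 genes with a smaller LPS response at 0.5 h, 10 were called lower with TNF at 0.5 h. Of the 78 at 1 h, 77 were tested with TNF, 40 were called lower and none was called higher. A negative difference was seen in 75 of the 77, and the share of negative differences over all genes was not counted. Tnfaip3 had 624 and 597 CPM in the 2 WT libraries at 1 h of TNF and 27.1 and 26.7 in those of RelA-TA-KI (log2 -4.50, SE 0.15, adjusted p = 2.1e-10, edgeR). Irf1 had 477 and 562 against 37.2 and 41.1 (-3.73, SE 0.17, adjusted p = 9.9e-09, edgeR). Ccl20 had 114 and 111 against 2.76 and 2.66, and was already lower at 0.5 h of TNF (36.7 and 36.3 against 1.5 and 0.775), a time at which LPS had not raised it. For these 3 genes, picked as examples, the WT and RelA-TA-KI libraries did not overlap. How many of all genes do so was not counted, so nothing is read from it.

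Some genes that were lower with LPS were not called with TNF. Egr1 had 295 and 224 CPM in WT and 218 and 177 in knock-in cells at 1 h of TNF (log2 -0.39, SE 0.14, adjusted p = 0.39, edgeR), and Ier2 had 49 and 50 against 31.8 and 33.3 (-0.60, SE 0.14, adjusted p = 0.055, edgeR). By 1 h of TNF the WT level of Egr1 was itself below its 0.5 h level of 862 and 967 CPM. Socs3 was at 28.9 and 23.9 against 22.3 and 23.2 (-0.21, SE 0.29, adjusted p = 0.87, edgeR), with little of the level that LPS gave. Plau was 1.49-fold higher in knock-in cells with LPS at 1 h, too little to be higher by size. With TNF at 1 h Plau was lower (210 and 194 against 130 and 122, log2 -0.68, SE 0.09, adjusted p = 0.00094, edgeR). The difference between stimuli was not tested, since they stand in separately normalized tables.

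**Figure D5:**
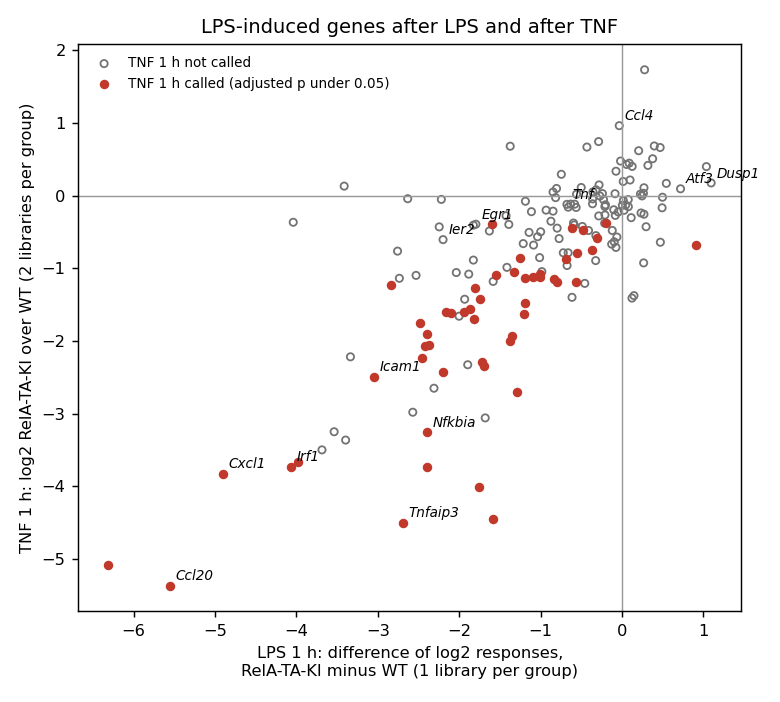
Difference of log2 responses to LPS at 1 h, RelA-TA-KI minus WT (x axis, 1 library per group), against the log2 genotype difference after 1 h of TNF (y axis, 2 libraries per group) for 179 LPS-induced genes tested with TNF. Filled points are the 51 genes called with TNF, all of which lie below 0.

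Poly(I:C), a double-stranded RNA mimic, differed by gene in its timing. At 0.5 h Nfkbia was near its untreated level (35.6 CPM in WT, 23.6 in knock-in cells). Of the 26 genes 0 was lower by size, against 0.652% of all genes, a share too small to read the 0. Several of the 26 were under 5 CPM in both libraries and could not be called, such as Cxcl1 (2.02 and 1.8 CPM) and Il1b (1.71 and 1.8). At 1 h Nfkbia was at 227 and 34 CPM, Tnfaip3 at 154 and 14.9 and Irf1 at 131 and 34.1, and 28 of the 78 genes with a smaller LPS response were lower by size, against 1.13% of all genes. Egr1 was at 399 and 411 CPM at 0.5 h of Poly(I:C) and 114 and 101 at 1 h.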

How the data were processed

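Messenger RNA was sequenced from poly(A)-selected, stranded, single-end libraries, per the labels' protocols. Upstream, cutadapt 1.9.1 (trimming), STAR (alignment, mm10) and featureCounts 1.4.6 (counting) were used by the authors, per the submitters' processing notes. They deposited whole-number counts for each gene, not normalized, in a table for LPS and Poly(I:C) (18 libraries) and a table for TNF (20). The annotation release and the handling of multiply mapped reads are not given in the sources used here; Gapdh stood at 1.36 to 2.63 CPM, so genes with near-identical copies are uncertain. Of 45706 identifiers, 45143 were given a symbol.

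CPM used TMM factors over the 18 libraries. Tests were edgeR 4.0.16 quasi-likelihood F tests in R 4.3.3 (filterByExpr, Benjamini-Hochberg, threshold 0.05), tested on simulated data, with DESeq2 1.42.0 as an alternative. Each SE was derived from the log2 change and its F value (change over root F). The LPS fit had 7 residual degrees of freedom and the TNF fit 10. Single-library ratios have 95% binomial intervals. Genes named as examples were drawn, without naming all, from the 12 lowest and 8 highest differences of responses among induced genes with at least 30 counts at each time, the 10 lowest and 10 highest ratios with at least 50, the 10 lowest adjusted p in each direction of the 18-library fit, Rela, and list members. Comparisons, gene lists and members were chosen with earlier results of these data known. The values of 1 list member are not reported here. Alternatives were normalization, prior count, CPM minimum, filter, test, libraries left out and the replicate block.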

Additional observations from a re-analysis of the deposited data

Results flagged for a closer look

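For 2 genes the genotype ratio went in opposite directions at the 2 times, each by at least 2-fold, with 1 library per group and no test of the difference. Lif, a cytokine of the interleukin-6 family, was at 3.47 CPM in WT and 7.49 in knock-in (RelA-TA-KI) cells at 0.5 h (log2 ratio 1.06) and at 45.2 and 12.4 at 1 h (-1.85). Rgs16, which shortens signals from G protein-coupled receptors, was at 5.04 and 10.7 CPM at 0.5 h (1.05) and at 20 and 6.46 at 1 h (-1.60).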

How the results depend on the processing

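Of the counts of genes, 55 alternative values stayed within 1.5 times and 28 did not. With a CPM minimum of 1, lower and higher genes numbered 272 and 172 at 0.5 h and 340 and 216 at 1 h, and larger responses 3 and 13; with a minimum of 20, 62 and 26, 123 and 25, and 1 larger response at 1 h, as with a prior count of 8. The 18-library test called 291 genes with DESeq2, 296 without the filter, 2090 from the 4 early libraries alone, 28 without the 0.5 h pair and 6 without the 1 h pair; early LPS minus the other conditions gave 4 with DESeq2 and 4 without the filter. TNF gave 249 and 555 genes at 0.5 and 1 h without the filter, 134 and 553 with the replicate block, and 17 to 26 and 72 to 79 with 1 library left out (the lone library is assumed to vary like the other groups). The numbers 1 and 2 are not said to pair samples; same-numbered deviations correlated at 0.246 and 0.187. Net of the untreated ratio, Cdh4 and C1qtnf3, higher at 0.5 h, came to 0.00 and -0.05. The counts of genes with a smaller response stayed within 1.5 times under every alternative run. With about 8 M counts, genes under 5 CPM have wide intervals, and single libraries give no spread between cultures.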

Other observations

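Several genes that LPS did not induce separated the cultures at 0, 0.5 and 1 h alike. Aqp1, a water channel, was at 367, 369 and 354 CPM in WT and 80.1, 76.5 and 76.3 in RelA-TA-KI. Comp, a cartilage and tendon matrix protein, was at 81, 81.6 and 85.7 against 14.2, 14.2 and 13.3, and Penk, the enkephalin precursor, at 229, 210 and 220 against 33.7, 36.1 and 34.9. In the other direction, the fibroblast surface protein Thy1 was at 69.1, 64.3 and 62.8 CPM in WT and 159, 171 and 173 in RelA-TA-KI, and Acta2, smooth muscle actin, at 385, 364 and 351 against 796, 950 and 883. In the separate TNF libraries none of these 5 genes was called at 0.5 or 1 h by edgeR (log2 from -0.91 for Comp to 0.28 for Thy1 at 1 h, with adjusted p of 0.3 and 0.81). Their levels there were far from those above. In WT at 1 h of TNF, Aqp1 was at 72.1 and 50.8 CPM, Comp at 11.5 and 10.7 and Penk at 21.2 and 15.4. Thy1 was at 217 and 321 and Acta2 at 3517 and 3027. The lack of calls is therefore not a like-for-like check.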
